A study of Mus musculus with 6 samples.

Results

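The semaphorins, plexins and neuropilins form one guidance signalling family, and 31 of its genes were followed here: 20 semaphorins, 9 plexins and 2 neuropilins, among 35275 gene identifiers in the deposited tables. They were taken by name as a family after Plxnb3, a plexin, had been seen to be much lower in the knockout forebrains of this series. The family was thus selected on the difference of Plxnb3 between the groups, and its values are given as a description, from which no support is drawn. Poly-T selected RNA came from 6 C57BL/6 forebrains taken on postnatal day 9. The conditional knockout (cKO) group was 3 mice of genotype Pdgfra-CreER:Parp1fl/fl, in which a tamoxifen-inducible Cre recombinase under the Pdgfra gene can delete Parp1, which encodes the principal poly(ADP-ribose) polymerase. The control group was 3 littermates with Parp1fl/fl and no Cre. All 6 mice, controls included, carried the floxed alleles and received tamoxifen by intraperitoneal injection on postnatal days 1 to 3. Pdgfra marks oligodendrocyte precursor cells, and also fibroblasts of the brain's coverings, so the deletion was aimed at few of the cells in the tissue that was sequenced.

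Semaphorins are secreted, membrane-spanning or lipid-anchored proteins that steer growing axons, migrating cells and blood vessels. Plexins are their receptors and carry an intracellular domain that switches off small Ras and Rap GTPases; most secreted class 3 semaphorins first bind a neuropilin, which then recruits a class A plexin. In the postnatal forebrain the family is best known for shaping axon tracts and synapses and for guiding oligodendrocyte precursors, and Plxnb3 is known as a plexin of the oligodendrocyte lineage.

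The libraries held 17262042 to 29310193 counted reads, of which the 31 genes took 0.253% to 0.267%. All 31 passed the filter on low counts. Parp1 itself was at 79.1 to 80.8 CPM (counts scaled to library size, normalised by TMM) in cKO and 85.6 to 97.3 CPM in controls, a difference that did not pass the test over all genes (edgeR adjusted p = 0.572). The count covers the whole gene in all forebrain cells and does not measure the deletion in the lineage. Control replicate 3 stood apart from the other 5 libraries. Its 8 thalamus markers summed to 640 CPM against 245 to 290 CPM. The largest values in that sum were Slc17a6, Calb2 and Tcf7l2, at 174, 162 and 144 CPM. Not all of the list was higher there: Prkcd was at 29.7 CPM, against 33.5 to 39.5 CPM in the other 5 libraries. The 8 striatum markers of control replicate 3 summed to 224 CPM against 694 to 902 CPM. The Y-linked gene Ddx3y had 1123 counts in control replicate 1 and at most 1 in each other library, so sex was not balanced between the groups. Neuron, astrocyte, oligodendrocyte, microglia and vascular markers were all detected, as a forebrain label implies. In whole tissue, fewer cells of a type and less RNA per cell cannot be told apart.

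Levels of the family in the control forebrains spanned from 1.09 to 41.2 FPKM (fragments scaled to library size and gene length, for comparing genes). The order depends on the lengths used in the deposited values. For Sema7a the length was 3296 bp, of 3298 bp of annotated exons. For Sema3a it was 5930 of 13868 bp, and for Sema4g 4552 of 8661 bp. An order by exon length was not made. Sema7a, the lipid-anchored semaphorin, had the highest mean at 41.2 ± 8.74 FPKM (SD, n = 3 mice), followed by the membrane-spanning Sema6b at 32.4 ± 1.06 FPKM and the receptor Plxna1 at 30.2 ± 2.89 FPKM. Next came Sema4g at 29.6 ± 1.03 FPKM and Plxnd1, the receptor of Sema3e, at 24.8 ± 6.41 FPKM. The secreted class 3 semaphorins lay at the low end, all 7 of them between 1.09 and 6.80 FPKM. At the bottom of the order were Plxnb3 at 2.68 ± 0.304 FPKM, Sema3d at 1.91 ± 0.121 FPKM, Sema3b at 1.34 ± 0.231 FPKM and Sema3g at 1.09 ± 0.145 FPKM. Most neighbours in this order could not be ranked: of 30 adjacent pairs, 25 had control values that overlapped. The 5 pairs whose values were apart on this scale were Sema6a above Sema4f, Plxnc1 above Sema4c, Sema3a above Sema3e, Plxnb3 above Sema3d, and Sema3d above Sema3b. Among plexins, Plxnb3 was the least abundant in every control library. In cKO it moved from place 28 of the 31 to place 31, while the places from 1 to 8 were held by the same genes in the same order.

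**Figure D1:**
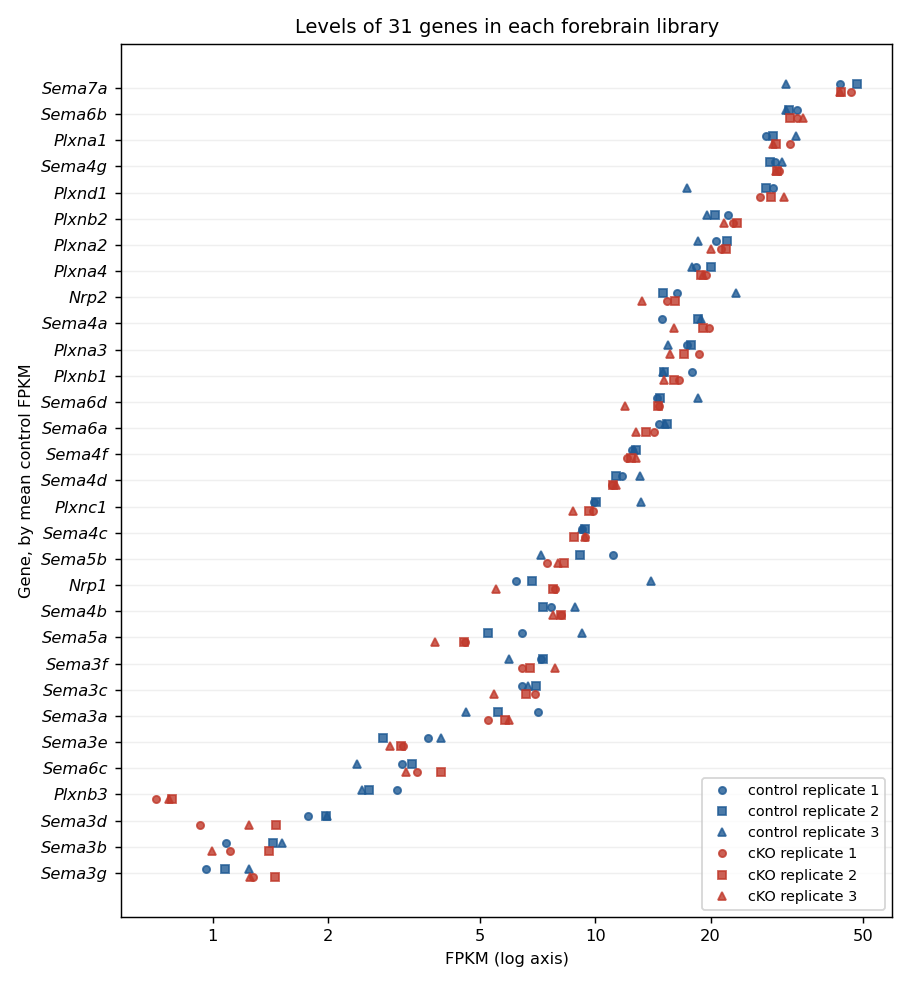
Deposited FPKM of the 31 genes in each library (log axis), ordered by mean control FPKM. Circles, squares and triangles are replicates 1, 2 and 3, blue for control and red for cKO. Plxnb3 is the gene whose groups lie farthest apart, with 0.710 to 0.781 FPKM in cKO and 2.46 to 3.03 FPKM in controls.

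Plxnb3 (ENSMUSG00000031385, chromosome X, 73757090 to 73772514 in mm10) encodes a class B plexin for which Sema5a is a known ligand. It was counted in 325, 343 and 338 reads in control replicates 1, 2 and 3, and in 88, 121 and 140 reads in the more deeply sequenced cKO replicates 1, 2 and 3. After normalisation these were 18.8, 15.8 and 15.4 CPM in controls and 4.34, 4.89 and 4.87 CPM in cKO. The 2 groups were far apart, and values within the cKO group differed little. The log2 fold change was -1.82 (95% confidence interval -2.11 to -1.53), a 3.53-fold lower level in cKO. By the size of its fall it was number 16 of 16938 genes tested. Of the other 30 genes of the family 0 were called by edgeR at an adjusted p under 0.05 (3 had an unadjusted p under 0.05, and DESeq2 and limma-voom also called 0), where 0.266% of all tested genes were called (0.207% lower and 0.059% higher in cKO). Since this contrast chose Plxnb3, nothing is read from its own place under that threshold. Its exons overlap no annotated gene on either strand. Plxnb3 is X-linked. Control replicate 1, the library with many reads of the Y-linked Ddx3y, had the highest level, and without it the log2 fold change was -1.73.

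The other class B plexins are much more abundant and did not follow Plxnb3. Plxnb1, the receptor of Sema4d (ENSMUSG00000053646, chromosome 9, 109095389 to 109119917), was at 153, 129 and 130 CPM in control replicates 1, 2 and 3 and at 140, 139 and 133 CPM in cKO replicates 1, 2 and 3. The groups overlapped, and the log2 fold change was -0.00 (95% confidence interval -0.16 to 0.16, edgeR adjusted p = 0.999). Plxnb2, a receptor of class 4 semaphorins needed by neural progenitors (ENSMUSG00000036606, chromosome 15, 89155549 to 89180788), was at 142, 130 and 126 CPM in controls and at 144, 151 and 142 CPM in cKO. All cKO values were above all control values, by a small margin, with a log2 fold change of 0.13 (interval -0.01 to 0.27) that did not pass the test (edgeR adjusted p = 0.816). On the FPKM scale Plxnb3 made up 7.03%, 6.70% and 6.64% of the class B total in control replicates 1, 2 and 3, and 1.77%, 1.94% and 2.04% in the cKO replicates. The mean share was 6.79% ± 0.207 in controls and 1.92% ± 0.136 in cKO (SD, n = 3 mice each), while the class B total was 39.4 ± 3.23 FPKM in controls and 39.4 ± 1.49 FPKM in cKO. Plxnb2 was 7.34 to 8.04 times as abundant as Plxnb3 in controls and 28.3 to 32.2 times in cKO. Part of the Plxnb1 exons (257 bp) overlap a gene on the opposite strand, so its count is less certain, because the strand setting of the counting is not given.

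**Figure D2:**
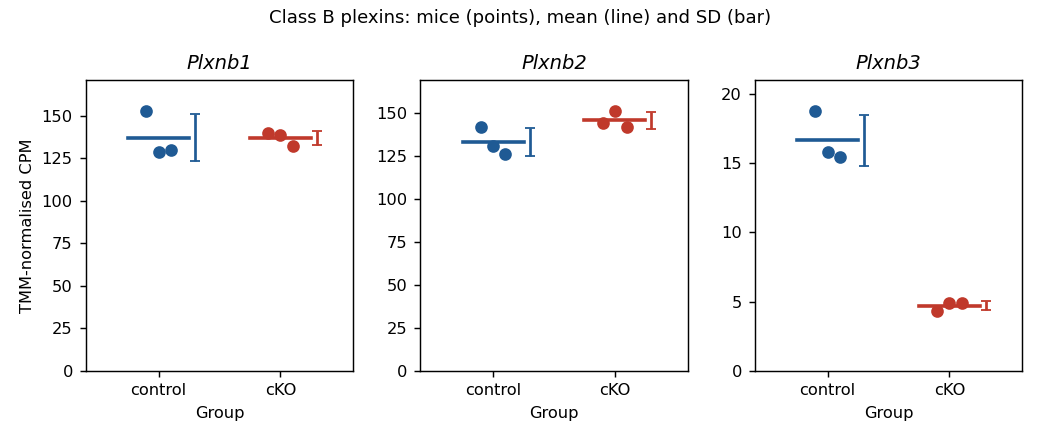
TMM-normalised CPM of the 3 class B plexins by group. Points are mice, the line is the mean and the bar its SD; each axis starts at 0 and has its own range. Plxnb3 is at 4.34 to 4.89 CPM in cKO and 15.4 to 18.8 CPM in controls, while Plxnb1 overlaps between the groups and Plxnb2 differs by a log2 fold change of 0.13.

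The start regions of Plxnb3, its closest relatives and its ligand are shown side by side, a choice made after the expression values were known. Each sequence runs 5′ to 3′ on the gene's own strand from 250 bases before to 50 after the RefSeq start (build GRCm38.p6), and 26 of the 31 genes had an entry. Capitals mark matches on either strand to ACAANG, the core bound by SOX factors such as Sox10, and to CAGCTG, an E-box form bound by basic helix-loop-helix factors such as Olig2; the 2 patterns do not overlap in these windows. The windows are chrX:73756853-73757152 (plus strand) for Plxnb3, chr9:109095186-109095485 (plus) for Plxnb1, chr15:89180739-89181038 (minus) for Plxnb2 and chr15:32244563-32244862 (plus) for Sema5a.
Plxnb3: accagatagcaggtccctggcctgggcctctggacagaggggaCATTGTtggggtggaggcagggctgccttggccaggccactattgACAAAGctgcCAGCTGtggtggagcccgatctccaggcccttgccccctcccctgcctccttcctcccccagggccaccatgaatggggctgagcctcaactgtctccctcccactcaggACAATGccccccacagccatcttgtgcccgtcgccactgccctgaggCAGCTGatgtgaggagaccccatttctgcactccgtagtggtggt
Plxnb1: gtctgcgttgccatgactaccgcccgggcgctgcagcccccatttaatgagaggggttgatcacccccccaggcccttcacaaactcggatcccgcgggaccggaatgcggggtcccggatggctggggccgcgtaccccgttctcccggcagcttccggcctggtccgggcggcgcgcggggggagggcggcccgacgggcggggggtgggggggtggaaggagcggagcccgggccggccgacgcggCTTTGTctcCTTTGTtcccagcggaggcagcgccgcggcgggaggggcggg
Plxnb2: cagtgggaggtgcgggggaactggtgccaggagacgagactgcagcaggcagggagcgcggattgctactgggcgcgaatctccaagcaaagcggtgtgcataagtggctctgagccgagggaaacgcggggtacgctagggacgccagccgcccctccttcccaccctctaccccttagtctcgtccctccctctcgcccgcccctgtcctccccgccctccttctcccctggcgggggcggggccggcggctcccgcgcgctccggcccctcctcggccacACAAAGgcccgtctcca
Sema5a: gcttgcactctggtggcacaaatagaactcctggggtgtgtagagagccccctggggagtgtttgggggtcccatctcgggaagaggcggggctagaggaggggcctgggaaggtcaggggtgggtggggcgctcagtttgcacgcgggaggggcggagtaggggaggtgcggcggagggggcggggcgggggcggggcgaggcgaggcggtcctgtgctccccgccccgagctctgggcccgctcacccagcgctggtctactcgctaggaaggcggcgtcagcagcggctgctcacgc
The Plxnb3 window held 3 ACAANG and 2 CAGCTG matches, that of Plxnb1 held 2 and 0, that of Plxnb2 held 1 and 0, and that of Sema5a held 0 of both. Among 32851 RefSeq windows of the same length, 41.2% held at least 1 ACAANG and 16.3% at least 1 CAGCTG, so a match to either is common. The 26 family genes with an entry had 37 windows, of which 15 held ACAANG and 6 held CAGCTG. The Plxnb3 window had 4 CpG dinucleotides, against 36 for Plxnb1, 27 for Plxnb2 and 23 for Sema5a, with a median of 7 over all windows. Its GC content was 63.7%, against 74.7%, 70.3% and 71.3%. A match says only that these letters are present, and binding was not measured.

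The class A plexins, which transduce class 3 signals with neuropilins and bind class 6 semaphorins directly, differed little between the groups. Plxna1 was at 251, 261 and 304 CPM in controls and 286, 269 and 267 CPM in cKO, with overlapping groups and a log2 fold change of 0.01 (interval -0.16 to 0.18). Plxna2, Plxna3 and Plxna4 had mean levels of 20.4, 16.9 and 18.8 FPKM in controls and of 21.1, 17.1 and 19.1 FPKM in cKO, and the log2 fold changes of all 4 class A genes lay between 0.01 and 0.05. Plxna3 is X-linked like Plxnb3, and its level in control replicate 1 was 120 CPM, between the 123 and 108 CPM of the other controls. Exons of Plxna1 and Plxna4 overlap opposite-strand genes, by 970 and 110 bp.

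The remaining receptors, Plxnd1, Plxnc1 and the neuropilins, each had their most distant value in control replicate 3. Plxnd1, known in vessels and in striatal projection neurons, was at 200, 191 and 121 CPM in control replicates 1, 2 and 3 and at 183, 200 and 219 CPM in cKO. The low value was that of control replicate 3; the log2 fold change was 0.24 (interval -0.26 to 0.74, edgeR adjusted p = 0.893) and 0.04 without that library. Plxnc1, the plexin that binds Sema7a, was at 69.7, 69.9 and 93.4 CPM in controls and 68.1, 68.1 and 62.7 CPM in cKO. Its groups did not overlap, though 2 controls lay within 2 CPM of the highest cKO mice; the log2 fold change was -0.23 (adjusted p = 0.816) and -0.08 without control replicate 3. Nrp1, the receptor of Sema3a and of vascular growth factor, was at 36.4, 40.0 and 83.2 CPM in controls and 45.7, 45.9 and 33.1 CPM in cKO. Its control replicate 3 was 2.08 times the mean of the other 5 libraries, the widest such gap among the 31 genes. The log2 fold change of Nrp1 was -0.36 with an interval from -1.44 to 0.71 and turned to 0.11 without that library, so a 2-fold fall lay inside the interval of all 6 libraries. Nrp2, which binds Sema3f, was at 110, 100.02 and 158 CPM in controls and 101, 109 and 90.5 CPM in cKO, and its log2 fold change was -0.29 (adjusted p = 0.860), or -0.07 without control replicate 3.

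Among the ligands, Sema5a and Sema3d had the most negative log2 fold changes over all 6 libraries. Sema5a was the lower of the pair there. Sema3d was the lower with limma-voom and with a replicate block. Sema3d was also the lower when control replicate 3, cKO replicate 2 or cKO replicate 3 alone was left out. Sema5a (ENSMUSG00000022231, chromosome 15, 32244810 to 32696341) is a membrane-spanning semaphorin with thrombospondin repeats that inhibits or attracts axons by context. It was at 69.1, 56.0 and 101 CPM in control replicates 1, 2 and 3 and at 48.4, 49.4 and 41.9 CPM in cKO replicates 1, 2 and 3. All cKO values were below all control values, and control replicate 3 was well above the other 2 controls. The log2 fold change was -0.69 (interval -1.27 to -0.12) and was not called (edgeR adjusted p = 0.718); without control replicate 3 it was -0.43 (adjusted p = 0.0878). The FPKM ratio of Sema5a to Plxnb3 was 2.64 ± 0.967 in controls and 5.73 ± 0.732 in cKO (SD, n = 3 mice each). Sema5b, its relative that repels axons, was at 51.5, 42.1 and 33.9 CPM in controls and 34.1, 38.6 and 37.8 CPM in cKO, with overlapping groups and a log2 fold change of -0.20 (adjusted p = 0.860), or -0.34 without control replicate 3 (adjusted p = 0.201).

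The secreted class 3 semaphorins were low and none was called. Sema3d, a guidance cue of axons and of vascular and neural crest cells (ENSMUSG00000040254, chromosome 5, 12383385 to 12588948), was at 11.5, 12.7 and 13.1 CPM in controls and 5.92, 9.61 and 8.24 CPM in cKO. The groups did not overlap and cKO replicate 1 was the lowest; the log2 fold change was -0.64 (interval -0.99 to -0.29, edgeR adjusted p = 0.253). Sema3d was called when no filter on low counts was used (log2 fold change -0.64, adjusted p = 0.0219). Sema3g, a cue of vessels and synapses that signals through Nrp2, was at 4.33, 4.83 and 5.70 CPM in controls and 5.67, 6.62 and 5.77 CPM in cKO, with a log2 fold change of 0.28 (adjusted p = 0.844). Sema3a, the classic collapsing factor of growth cones, was at 34.0 ± 7.32 CPM in controls and 33.7 ± 2.81 CPM in cKO (SD, n = 3 mice each). Sema3f, the main ligand of Nrp2, was at 23.0 ± 2.36 and 23.8 ± 2.92 CPM, and Sema3e, which binds Plxnd1 without a neuropilin, at 23.6 ± 4.30 and 20.9 ± 0.567 CPM. Sema3b and Sema3c were at 4.61 ± 0.810 and 36.8 ± 1.46 CPM in controls and at 4.02 ± 0.724 and 34.8 ± 3.77 CPM in cKO.

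The class 4 semaphorins, membrane proteins that mostly signal through class B plexins, differed little between the groups. Sema4d, the ligand of Plxnb1 and an inhibitor of oligodendrocyte differentiation, was at 54.0 ± 4.60 CPM in controls and 50.2 ± 1.59 CPM in cKO (SD over 3 mice each), and its log2 fold change was -0.10 (interval -0.27 to 0.06, edgeR adjusted p = 0.862). Sema4c and Sema4g, both ligands of Plxnb2, had log2 fold changes of -0.01 and 0.02, and Sema4f had one of -0.01. Their control means were 35.3 ± 0.227, 135 ± 5.93 and 51.5 ± 0.632 CPM. Sema4a and Sema4b were at 0.07 and 0.01. The 6 class 4 genes together stayed between -0.10 and 0.07 on the log2 fold change scale, and exons of Sema4c overlap an opposite-strand gene by 334 bp.

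Class 6 and 7 semaphorins bind class A plexins and Plxnc1, respectively. Sema6a, a membrane-spanning ligand of Plxna2 and Plxna4 that has been tied to oligodendrocyte differentiation (ENSMUSG00000019647, chromosome 18, 47235598 to 47368870), was at 100.3, 104 and 105 CPM in controls and 96.0, 93.6 and 89.3 CPM in cKO. All cKO values were below all controls by a small margin, with a log2 fold change of -0.15 (interval -0.28 to -0.02, edgeR adjusted p = 0.718). Sema6b was at 129, 123 and 122 CPM in controls and 127, 125 and 137 CPM in cKO, a log2 fold change of 0.06. Sema6c, the least abundant of class 6, was at 15.9, 16.7 and 12.2 CPM in controls and 17.1, 20.2 and 16.6 CPM in cKO, with groups that just overlapped; its log2 fold change was 0.27 (adjusted p = 0.816), or 0.13 without control replicate 3. Sema6d, a ligand of Plxna1, was at 103 ± 15.5 CPM in controls and 88.6 ± 8.91 CPM in cKO. Sema7a was at 144, 158 and 105 CPM in controls and 151, 145 and 146 CPM in cKO; its log2 fold change was 0.12 (adjusted p = 0.916) and turned to -0.04 without control replicate 3, the low library.

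Set side by side, Plxnb3 lay well outside the range of its family. The other 30 genes had log2 fold changes from -0.69 to 0.28, 16 below and 14 above 0, and 27 of them within 0.3 of 0. Their median was -0.00, as was the median of all 16938 genes tested. The smallest adjusted p among them was 0.253. For 28 of these 30 genes the whole 95% interval lay within 1 of 0, that is, within 2-fold; it reached past that for Sema5a and Nrp1. Without control replicate 3 the range was -0.61 to 0.39, with 26 within 0.3 of 0. In 5 of the other 30 genes the groups did not overlap, against 11.9% of all tested genes (5.86% lower and 6.08% higher in cKO): Sema3d, Sema5a, Sema6a and Plxnc1 were lower and Plxnb2 was higher. Before adjustment, 3 of the 30 had p under 0.05 (Sema3d, Sema5a and Sema6a), against 6.27% of all tested genes.

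**Figure D3:**
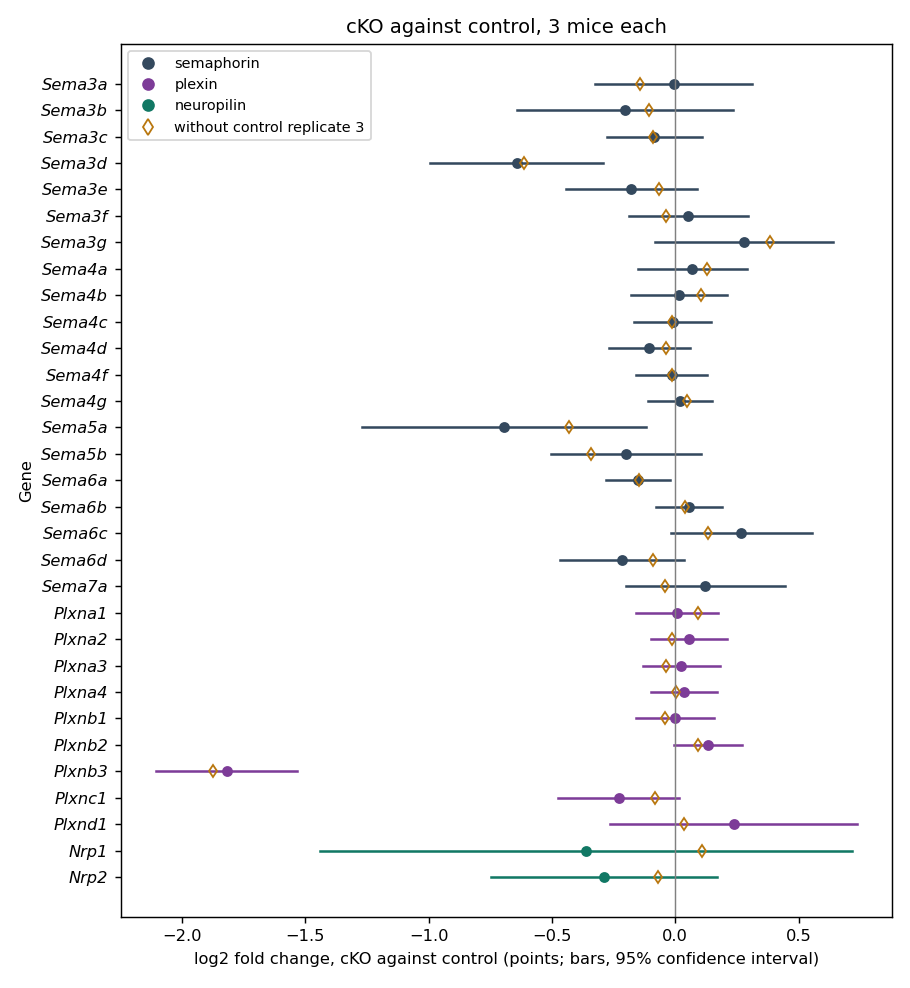
Log2 fold change of cKO against control for each gene (filled points) with its 95% confidence interval (bars), from 3 mice each. Open diamonds give the value without control replicate 3. Plxnb3 is at -1.82, and the other 30 genes are between -0.69 and 0.28.

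Control replicate 3 was the library in which most of the family was outermost. There 24 of the 31 genes lay outside the range of the other 5 libraries, 13 above and 11 below, where 52.1% of all tested genes did so. The genes above were led by Nrp1 (2.08 times the mean of the other 5), Sema5a (1.93 times) and Nrp2 (1.55 times). Those below were led by Plxnd1, 1.63-fold lower, Sema7a, 1.42-fold lower, and Sema6c, 1.41-fold lower. Plxnb3 was not outside the other 5 there. In the other libraries 5 to 13 of the 31 genes were outermost, where 24.3% to 33.1% of all tested genes were. The 13 were in cKO replicate 3, where that share was 33.1%. The part of the higher thalamus sum and lower striatum sum of control replicate 3 in these values was not tested.

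**Figure D4:**
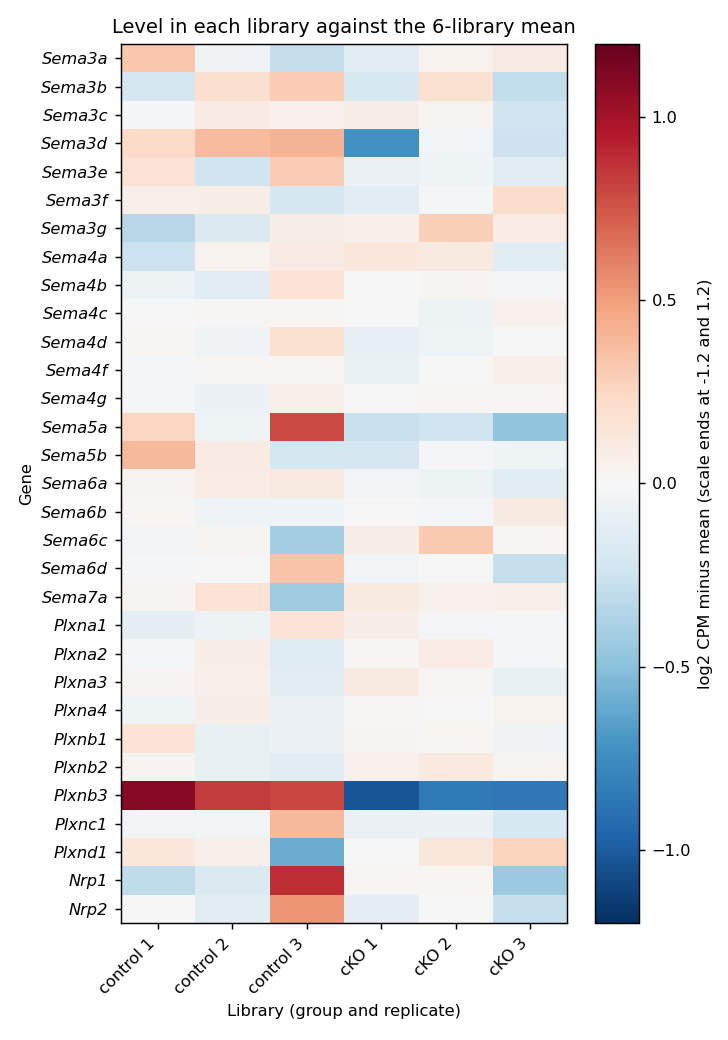
Log2 CPM of each gene in each library minus its mean over the 6 libraries (red above, blue below). Plxnb3 divides the groups, while the strongest colours of Nrp1, Nrp2, Sema5a and Plxnd1 are in control replicate 3.

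Other genes of the pathway, co-receptors, neuropilin ligands and intracellular partners drawn from textbook knowledge, did not pass the test. Of 60 listed genes 59 were tested, and 0 were called by edgeR at an adjusted p under 0.05. Over all tested genes 0.266% were called, so 0 of 59 is near that share. An unadjusted p under 0.05 was found for 5, where 6.27% of all tested genes had such a p. DESeq2 and limma-voom each called 1, Fyn. The median log2 fold change of the 59 genes was -0.02, with 33 below 0. In 6 the groups did not overlap, a share no higher than the 11.9% of all tested genes. Fyn, a kinase that acts downstream of class A plexins and in oligodendrocyte differentiation, was at 279, 267 and 294 CPM in controls and 210, 224 and 230 CPM in cKO. The groups did not overlap; its log2 fold change was -0.34 (interval -0.48 to -0.20, edgeR adjusted p = 0.0652), and it was called under 6 of 16 alternatives, among them without control replicate 3 (-0.31, adjusted p = 0.0267) and by DESeq2 (-0.34, adjusted p = 0.00154). Rnd2, a small GTPase that binds plexins, was at 74.4, 69.2 and 87.7 CPM in controls and 65.1, 61.4 and 59.3 CPM in cKO, with a log2 fold change of -0.32 (adjusted p = 0.301); it was called without a filter on low counts (-0.31, adjusted p = 0.0457). Mical2, an actin-oxidising enzyme of the plexin pathway, had a log2 fold change of 0.21 and Vegfc, a growth factor that binds Nrp2, one of 0.43 (adjusted p = 0.619 and 0.758). The 18 co-receptors and alternative receptors ranged from -0.25 to 0.47 and the 37 intracellular partners from -0.34 to 0.25.

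Many, but not all, genes of the oligodendrocyte lineage were lower in the same libraries. Both lists were chosen with earlier results of these data known, so their calls and medians are a description. All 14 tested precursor genes were below 0, with a median log2 fold change of -0.66, and 7 were called lower. Of 17 tested genes of premyelinating and myelinating cells 14 were below 0, with a median of -0.66, and 10 were called lower. Calls were made by edgeR at an adjusted p under 0.05 over all genes, where 0.207% of all tested genes were called lower. Sox10, a factor of the whole lineage, fell from 44.7 ± 2.98 to 16.8 ± 0.301 CPM, and Bcas1, a marker of cells that start to myelinate, from 60.7 ± 4.18 to 12.7 ± 1.41 CPM (SD over 3 mice each, both called by edgeR). Genes of mature myelin did not all share this: Mog, Aspa, Mal and Ermn were not called, at log2 fold changes of -0.00, 0.02, 0.18 and 0.38. Their control means were 7.71, 1.98, 4.91 and 0.808 CPM. The intervals of Aspa (-0.65 to 0.70) and Ermn (-0.28 to 1.05) were wide. Fa2h, Mobp and Cldn11 were also not called, but their log2 fold changes were -2.10, -0.65 and -0.50. Plxnb3 lay within the range of the 31 oligodendrocyte genes tested. Of these, 5 had a more negative log2 fold change and 26 a less negative or positive one. Enpp6 at -2.10 and Gjc3 at -1.75 stood on either side. Sema5a and Sema3d, at -0.69 and -0.64, lay near the medians of both lists over all 6 libraries, and Sema6a was at -0.15. Without control replicate 3 Sema5a was at -0.43 and Sema3d at -0.61, beside medians of -0.69 for the precursor list and -0.66 for the other list. The summed level of the precursor list was 1126.5 to 1267 CPM in cKO and 1622.5 to 1657 CPM in controls, and that of the premyelinating and myelinating list 401 to 452 CPM in cKO and 730.2 to 884 CPM in controls. No member of the neuron, astrocyte, microglia, vascular, fibroblast, striatum or thalamus lists was called by edgeR. This was 0 of 56 tested, near the 0.266% of all tested genes. Of the 56, 10 had an unadjusted p under 0.05, against 6.27% of all tested genes. DESeq2 called 1, Csf1r of microglia, and limma-voom 0. The median log2 fold changes of these lists, in that order, were 0.02, 0.03, 0.45, 0.12, 0.47, 0.29 and -0.61. Without control replicate 3 the striatum median turned to -0.14, the thalamus median to 0.09, and the fibroblast median was 0.81. The part of these cell types in the plexin and semaphorin values was not tested.

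**Figure D5:**
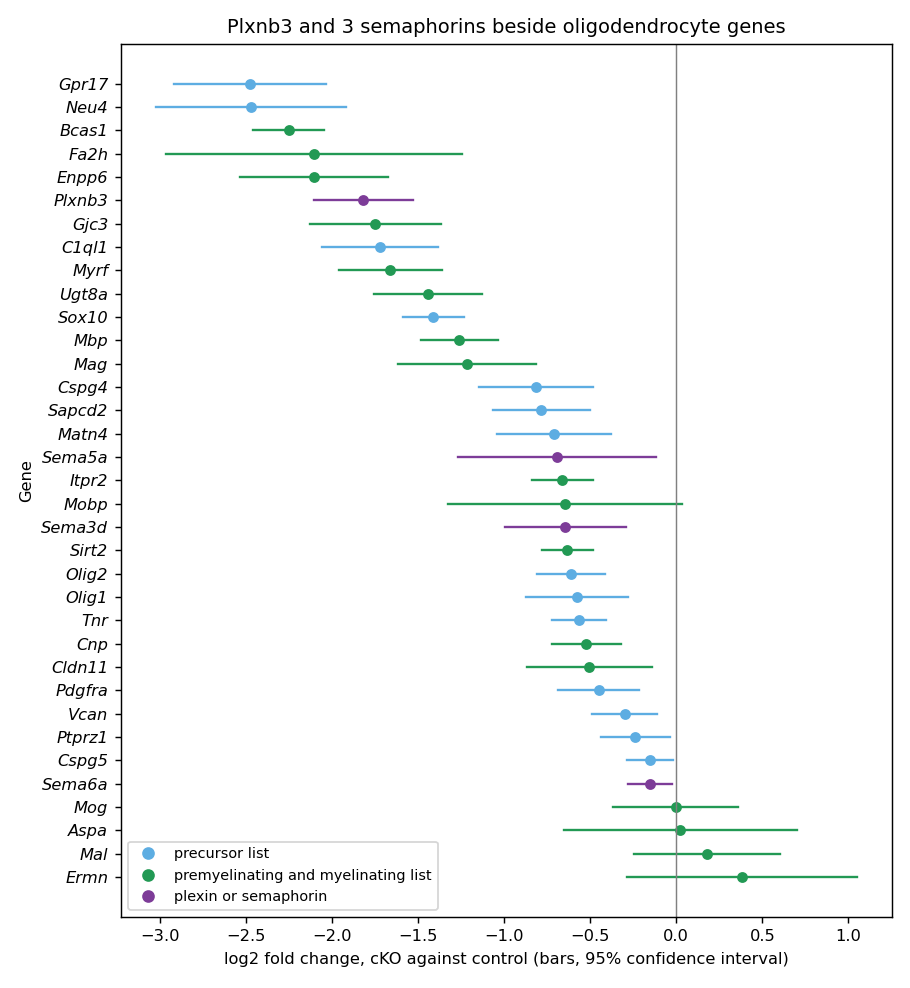
Log2 fold change with 95% confidence interval of 31 oligodendrocyte genes (blue, precursor list; green, premyelinating and myelinating list) and of Plxnb3, Sema5a, Sema3d and Sema6a (purple); the 3 semaphorins are the other family genes with an unadjusted p under 0.05. Plxnb3, at -1.82, stands between Enpp6 and Gjc3, and Sema5a, Sema3d and Sema6a are at -0.69, -0.64 and -0.15.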

How the data were processed

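Forebrain messenger RNA of 6 mice (3 cKO, 3 control) was made into directional poly-T libraries, per the labels' protocols. The authors deposited counts, whole reads per Ensembl gene in 1 column per library. Per the submitters' processing notes, the build is mm10 and the tools CASAVA, STAR 2.5, HTSeq 0.6.1 and DESeq 2.1.6.3 were involved, with no role given. The annotation release and the strand setting of the counting were not given in the sources used here. The deposited FPKM values are the counts over a constant gene length and the library total, in 100% of values to within 0.01 bp of a whole length, so they are the same measurement. GENCODE M21 named 34490 of 35275 identifiers; the other 785 took 0.119% to 0.130% of reads. All 31 family genes matched 1 identifier each.

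Counts were tested with edgeR 4.0.16 in R 4.3.3: filterByExpr (minimum count 10, minimum total 15), TMM, robust quasi-likelihood test of 3 mice against 3 (two-sided), Benjamini-Hochberg adjustment over 16938 genes, called at an adjusted p under 0.05. Pairs of replicates differed beyond counting noise (chi-square per degree of freedom 5.44 to 16.1). Each library was taken as 1 mouse, which that spread alone does not show. The scripts were tested on simulated data. The family, the gene lists and the tests were chosen with earlier results of these data known. Values in every library are given for the class B plexins, the 4 other genes with the smallest p in each direction, the most abundant genes and those farthest off in control replicate 3; further names were picked once values had been seen. Ranking genes by likeness to Plxnb3 was left out, since its values form 2 separate clusters that are the groups. Of the marker lists, Lhfpl3 and Tmem2 had no row under those names and Timd2 and Opalin were too low to test; 1 listed gene is not reported here. Alternatives were other normalisations and filters, DESeq2 1.42.0, limma 3.58.1 with voom or on log2(FPKM + 1) and log2(FPKM + 0.1), a replicate block, and leaving out each library.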

Additional observations from a re-analysis of the deposited data

How the results depend on the processing

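The log2 fold change of Plxnb3, a description since this contrast chose the gene, ran over 16 alternatives from -1.88 (without control replicate 3) to -1.07 on log2(FPKM + 1), a scale that understates changes of low genes. It was -1.70 on log2(FPKM + 0.1). No family gene other than Plxnb3 was called in any alternative except without a filter on low counts, where Sema3d (-0.64) brought the number called to 2, both lower; there the calls over all genes rose from 45 to 111. Over all genes DESeq2 called 108 and limma on FPKM 24. Direction was not settled for genes near 0. Plxnb1 turned from -0.00 to 0.0025 with upper-quartile factors, 0.0066 without a filter, 0.00079 at a mean of at least 1 CPM, 0.0053 with limma-voom and 0.0032 with the replicate block, and Nrp1 turned to 0.0033 with limma-voom. Leaving out 1 library moved Plxnb1 between -0.045 and 0.084 (above 0 without cKO replicate 3 or control replicate 1), Plxna1 between -0.047 and 0.091 (below 0 without cKO replicate 1, control replicate 1 or 2), Nrp1 between -0.57 and 0.11 and Sema7a between -0.041 and 0.25 (both turned without control replicate 3). The mean Plxnb3 share of class B FPKM moved by less than its SD when each library of its group was left out. Leaving out 1 library, the pathway list had 0 to 1 called (Fyn, without control replicate 3), the microglia list 0 to 1 (Csf1r, without control replicate 1) and the fibroblast list 0 to 1 (Col1a1, without cKO replicate 3). Without a filter on low counts Fyn (-0.33, adjusted p = 0.00698) and Rnd2 were both called. The median of the premyelinating and myelinating list was between -0.89 (without control replicate 2) and -0.65, and that of the astrocyte list between -0.0082 and 0.082. No pairing by replicate number was seen. Deviations of same-numbered libraries correlated at -0.0461 to 0.00694, and 0 of 6 libraries correlated best with their own number. With 3 libraries a group, and control replicate 3 far from the others, this check could miss a shared litter. With the replicate block Plxnb3 was at -1.81, 1 family gene was called and 32 genes over all. Depth limits the lowest genes, Sema3b and Sema3g, each counted in 64 to 166 reads a library, and Plxnb3 in cKO, in 88 to 140.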
